A study of Mus musculus with 11 samples.

Results

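Dentate granule cell markers are 10 genes, Prox1, C1ql2, Dsp, Lct, Calb1, Tdo2, Stxbp6, Rfx3, Il1rap and Pdzd2, known as markers of the granule neurons of the dentate gyrus, though some, such as Calb1, are also made by other hippocampal neurons. They were chosen by name, and all 10 had a row in each of the 11 count files, among 24421 gene symbols. All 10 also passed the filter on low counts, which kept 14982 genes. The study measured RNA in the hippocampus of mouse offspring whose mothers had received either PM (particulate matter) or normal saline by the nose while pregnant, and its title concerns behaviour and NMDA receptors. There are 6 PM libraries, with PM at 200 µg per kg, and 5 Vehicle libraries, with saline. The labels place the intranasal doses on gestational days 9, 12 and 15 and birth on day 21, and the hippocampus was taken when the offspring were 14 to 18 weeks old. The labels name no strain, genotype, sex or litter, and do not say what the PM was made of or whether each library came from a separate animal, so the p-values speak of the spread among these libraries, part of which may be technical.

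The libraries fall into 2 deposit sets, since library names restart and a treatment protocol is given only in the second. The first set holds PM replicates 1 to 3 and Vehicle replicates 1 to 3, and the second holds PM replicates 4 to 6 and Vehicle replicates 4 and 5. For the second set's Vehicle libraries, the treatment protocol names PM while the treatment field names saline, and the treatment field set the group here.

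Granule neurons receive the main cortical input to the hippocampus and send mossy fibre axons to CA3 pyramidal neurons, and new granule neurons are added through life. The homeodomain protein PROX1 gives them their identity and keeps it in adulthood, and calbindin, the calcium buffer encoded by Calb1, appears as they mature. At mossy fibre synapses the secreted protein C1QL2 binds neurexin 3 and recruits kainate receptors.

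The 250 bases before the RefSeq start are shown for C1ql2, which was higher in PM libraries, and for Prox1, Il1rap and Rfx3, which were lower. They come from RefSeq on GRCm38.p6, at chr1:120340332-120340581 on the plus strand, chr1:190170828-190171077 on the minus strand, chr16:26581455-26581704 on the plus strand and chr19:28011167-28011416 on the minus strand, and each is written 5′ to 3′ along its gene. Capitals mark matches, on either strand, to the TATA box (TATAAA), the GC box (GGGCGG), the E-box of NeuroD-type factors (CAGATG) or the CCAAT box.
C1ql2: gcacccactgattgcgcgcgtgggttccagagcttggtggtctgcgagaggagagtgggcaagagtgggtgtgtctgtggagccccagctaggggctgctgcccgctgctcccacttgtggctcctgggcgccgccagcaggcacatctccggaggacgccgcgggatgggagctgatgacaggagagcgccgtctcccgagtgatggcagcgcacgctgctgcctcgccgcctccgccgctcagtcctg
Prox1: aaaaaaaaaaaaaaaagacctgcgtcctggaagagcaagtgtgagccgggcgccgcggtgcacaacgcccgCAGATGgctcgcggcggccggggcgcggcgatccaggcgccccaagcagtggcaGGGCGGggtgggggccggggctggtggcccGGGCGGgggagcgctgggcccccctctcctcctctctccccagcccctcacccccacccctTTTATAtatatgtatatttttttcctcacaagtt
Il1rap: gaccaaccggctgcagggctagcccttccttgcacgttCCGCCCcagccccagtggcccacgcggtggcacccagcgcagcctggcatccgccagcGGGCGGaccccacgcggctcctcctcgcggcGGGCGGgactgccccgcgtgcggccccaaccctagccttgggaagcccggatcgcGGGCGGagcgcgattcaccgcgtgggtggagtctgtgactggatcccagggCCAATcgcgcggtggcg
Rfx3: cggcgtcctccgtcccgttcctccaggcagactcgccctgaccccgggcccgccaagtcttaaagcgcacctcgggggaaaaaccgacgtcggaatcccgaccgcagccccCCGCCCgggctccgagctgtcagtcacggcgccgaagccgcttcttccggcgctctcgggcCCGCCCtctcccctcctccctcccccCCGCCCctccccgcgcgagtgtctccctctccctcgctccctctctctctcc
The C1ql2 stretch held none of these letters, and the other 3 held the GC box. Among the markers called higher, neither C1ql2 nor Tdo2 held the GC box. Among those called lower, Prox1, Rfx3, Il1rap and Pdzd2 held it, and Stxbp6 held no match. Of the markers not called, Dsp held 4 GC boxes and Lct held no match. Whether the GC box goes with the direction of change was not tested. Of 10 promoters listed for 9 members, Prox1 having 2 starts and Calb1 no entry, 6 held the GC box, against 32.7% of all 32851 promoters. Neither Prox1 start was found in an annotated transcript (GENCODE). The core of the RFX site, GTTGCC, was in 0 of 10, against 10.4% of all, the cAMP response element TGACGTCA in 0 of 10, against 1.55%, and the AP-1 site TGACTCA in 0 of 10, against 4.46%. CAGATG was in 1 of 10, against 14.4%, CCAAT in 2, against 33.8%, and TATAAA in 2, against 12.4%. The stretches shown were rich in G and C, at 68.8% for C1ql2, 64.8% for Prox1, 74.4% for Il1rap and 72.8% for Rfx3, beside a median of 52.4% over all promoters.

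Counts assigned to genes came to 10938521 to 17763893 in PM libraries and 6012116 to 12496651 in Vehicle libraries. Reads that fell in no annotated feature made up 18.8% to 34.0% of counts in PM libraries and 60.9% to 62.0% in Vehicle libraries, with no overlap. Rn45s, the ribosomal RNA precursor, took 4.01% to 17.0% of gene counts in PM and 0.792% to 2.17% in Vehicle libraries, and the nuclear RNA Malat1 0.0827% to 0.807% in PM and 2.12% to 2.33% in Vehicle libraries, also with no overlap. PM libraries further split by set, with no-feature shares of 18.8% to 21.4% in the first and 29.3% to 34.0% in the second, and Rn45s shares of 12.4% to 17.0% in the first and 4.01% to 8.14% in the second. Y-linked counts were absent or nearly so in 2 of 6 PM libraries, 1 in each set, and in 2 of 5 Vehicle libraries, which are both Vehicle libraries of the second set, so that in Vehicle libraries the set and the Y-linked class cannot be told apart. Across 14852 tested genes with an annotated length, the log2 fold change fell with transcript length, with a Spearman rho of -0.49 as a description across genes, which are not independent. The log2 fold change also rose with the GC content of the transcript, with a rho of 0.39. The part of these shares, of the Y-linked class, of length and of GC content in the results that follow was not tested beyond the values given.

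In PM libraries the 10 markers did not move one way. C1ql2, Calb1 and Tdo2 were higher, Prox1, Rfx3, Il1rap, Pdzd2 and Stxbp6 were lower, and Dsp and Lct did not pass the test (edgeR quasi-likelihood test with the set as covariate, two-sided, adjusted p under 0.05 over all tested genes). Among all tested genes 32.7% were higher, 36.4% lower and 69.1% called in either direction, so that 8 called markers of 10 is a share near that of all genes. The median log2 fold change was -0.29 over the markers and -0.04 over all tested genes. For 6 markers the ranges of PM and Vehicle libraries did not overlap, with 2 higher and 4 lower, beside 52.4% of all tested genes (24.3% higher and 28.1% lower). In bulk tissue, fewer granule neurons and less RNA per granule neuron cannot be told apart.

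**Figure D1:**
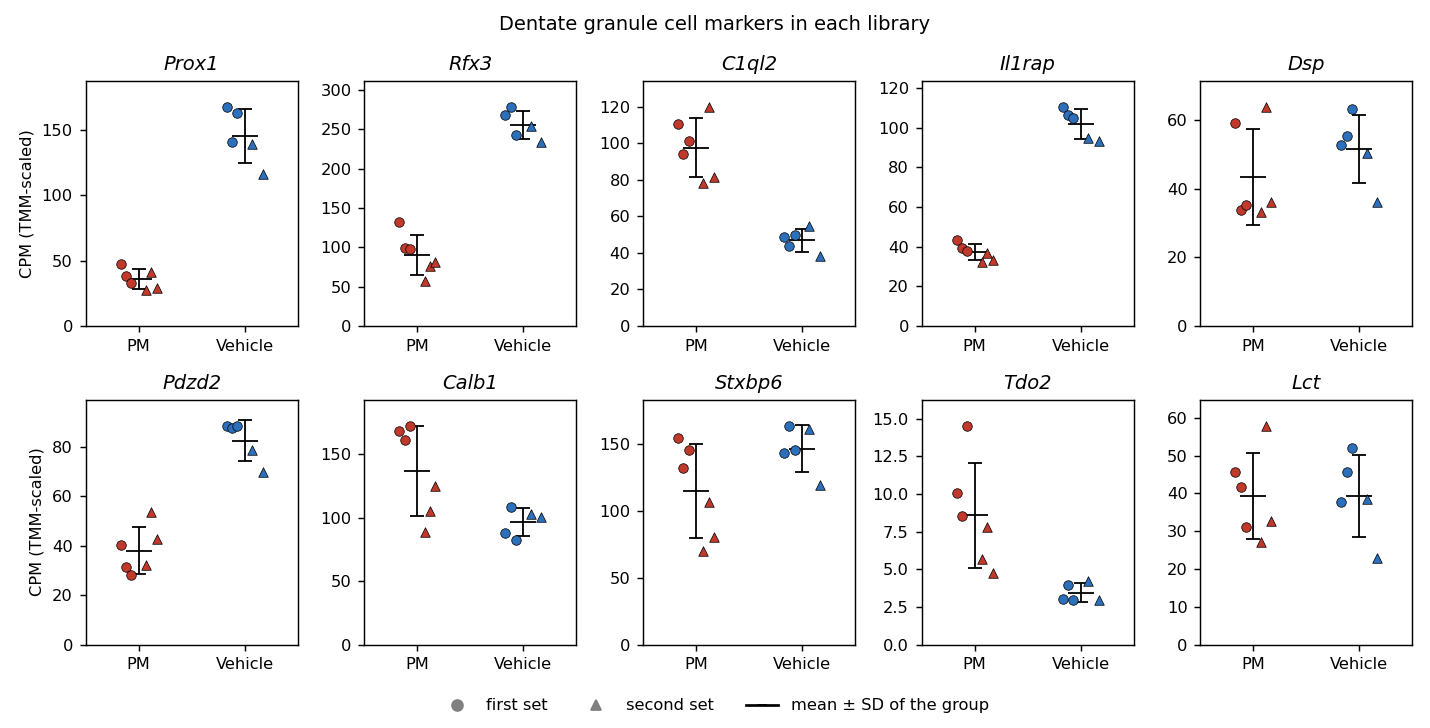
Level of each marker in CPM (counts relative to the TMM-scaled library size), with PM libraries left and Vehicle libraries right. Circles are libraries of the first set, triangles those of the second, and bars give the mean ± SD of 6 PM and 5 Vehicle libraries. The groups stand fully apart for Prox1, Rfx3, C1ql2, Il1rap, Pdzd2 and Tdo2 and overlap for Dsp, Calb1, Stxbp6 and Lct.

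The largest fall among the markers was that of Prox1, which encodes the homeodomain factor that granule neurons need to keep their identity and lies on chromosome 1 (GRCm38, 190118035 to 190170714, minus strand). In CPM, counts relative to the library size as scaled by TMM, levels were 27.9 at the lowest, 35.6 at the median and 47.4 at the highest in PM libraries, against 167, 140, 163, 139 and 116 CPM in Vehicle replicates 1 to 5. Every PM library lay below every Vehicle library. The means were 36.2 ± 7.52 CPM in PM and 145 ± 20.5 CPM in Vehicle libraries (SD, n = 6 and n = 5), a log2 fold change of -1.97 (SE 0.12, edgeR adjusted p = 1.6e-08), or 3.93-fold lower. Only 5.49% of all tested genes had a lower or equal log2 fold change. Both sets showed it, with log2 fold changes of -1.98 and -1.96 in order, and no difference between them passed the test (0.03, SE 0.23, adjusted p = 0.94). An antisense gene, Prox1os, shares 133 exonic bases with Prox1 on the other strand, and because no source used here gives the strand setting of the counting, reads from both cannot be told apart.

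Rfx3, the second transcription factor among the markers, belongs to the RFX family that controls genes of cilia. It lies on chromosome 19 (27761721 to 28011166, minus strand). PM libraries held 57.0 CPM at the lowest, 89.3 at the median and 132 at the highest, against 268, 278, 242, 255 and 234 CPM in the Vehicle replicates in order. All 6 PM libraries were below all Vehicle libraries, and the highest PM value was that of PM replicate 1. Rfx3 was 2.80-fold lower (log2 fold change -1.49, SE 0.13, edgeR adjusted p = 2.8e-07). The first set gave -1.26 and the second -1.77, a difference that did not pass the test (adjusted p = 0.064). It passed without PM replicate 3 (-0.59, adjusted p = 0.040) or PM replicate 6 (-0.72, adjusted p = 0.018), and under 3 other settings of scaling or filter (-0.64 to -0.59, adjusted p of 0.016 to 0.036).

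C1ql2 went the other way from Prox1. It encodes the secreted C1q-like protein of mossy fibre synapses and is a short gene on chromosome 1 (120340582 to 120343174, plus strand) with 2 exons and a transcript of 2000 bases. Its level was 78.1 CPM at the lowest, 97.7 at the median and 120 at the highest in PM libraries, against 48.6, 43.7, 49.9, 54.7 and 38.3 CPM in Vehicle libraries. The lowest PM library, replicate 4, still stood above the highest Vehicle library, also replicate 4. C1ql2 was thus 2.09-fold higher (log2 fold change 1.06, SE 0.13, edgeR adjusted p = 6.0e-06). Libraries of the first set gave a rise of 1.10, those of the second 1.02 (difference -0.09, SE 0.24, adjusted p = 0.82).

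Il1rap encodes the accessory chain of the interleukin-1 receptor, which also binds the receptor tyrosine phosphatase PTPδ at synapses. It lies on chromosome 16 (26581704 to 26730117, plus strand). PM libraries held 32.4 CPM at the lowest, 37.4 at the median and 43.4 at the highest, against 110, 106, 105, 94.7 and 93.2 CPM in Vehicle libraries. The spread within each group was narrow, and no PM library came near the Vehicle range. Il1rap was 2.70-fold lower (log2 fold change -1.43, SE 0.07, edgeR adjusted p = 3.3e-09), by set -1.41 in the first and -1.46 in the second. The antisense gene Gm20319 shares 663 exonic bases with it and was counted 0 or 1 times in PM libraries and 7 to 19 times in Vehicle libraries, against 375 to 1394 counts of Il1rap over all libraries.

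Dsp encodes desmoplakin, which ties desmosomes to intermediate filaments, and lies on chromosome 13 (38151294 to 38198577, plus strand). Its level in PM libraries was 33.3 CPM at the lowest, 35.7 at the median and 63.8 at the highest, against 52.9, 55.5, 63.3, 50.5 and 36.3 CPM in Vehicle libraries. PM replicates 1 and 5 stood at 59.3 and 63.8 CPM, among the Vehicle libraries, while the other PM libraries stood at 33.3 to 36.3 CPM. The log2 fold change of -0.22 (SE 0.20, 95% interval -0.62 to 0.18) did not pass the test (edgeR adjusted p = 0.35). Without PM replicate 5 it was -0.38 and passed (adjusted p = 0.047). Gm10129, on the other strand, shares 499 exonic bases with Dsp and was not counted as a gene of its own. As for Prox1, reads from both cannot be told apart.

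Pdzd2 encodes a large protein with several PDZ domains and has the longest transcript among the markers, at 10756 bases, on chromosome 15 (12359711 to 12739924, minus strand). PM libraries held 28.1 CPM at the lowest, 36.2 at the median and 53.6 at the highest, against 88.5, 87.5, 88.3, 78.5 and 69.8 CPM in Vehicle libraries. As for Dsp, the highest PM library was replicate 5, but here it stayed below every Vehicle library. Pdzd2 was 2.20-fold lower (log2 fold change -1.14, SE 0.15, edgeR adjusted p = 1.7e-05). The estimate for the first set was -1.41 and that for the second -0.79, a difference that did not pass the test (adjusted p = 0.067) but did without PM replicate 1 (0.78, adjusted p = 0.013) or PM replicate 4 (0.79, adjusted p = 0.0093).

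Calb1, the calbindin gene on chromosome 4 (15881264 to 15908064, plus strand), was higher in PM libraries on average, and its values split by set. In the first set PM libraries held 168, 161 and 172 CPM, against 87.6, 109 and 82.3 CPM in Vehicle libraries. In the second set PM libraries held 88.5, 106 and 125 CPM, against 103 and 100 CPM in Vehicle libraries. The groups stood apart in the first set and overlapped in the second. Over all libraries Calb1 was 1.41-fold higher (log2 fold change 0.50, SE 0.15, edgeR adjusted p = 0.0079). In log2 terms the first set gave 0.85 (adjusted p = 8.9e-06) and the second 0.07 (adjusted p = 0.69). The effect differed between sets (-0.78, SE 0.18, adjusted p = 0.0046), and this held with any replicate left out.

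Stxbp6 encodes amisyn, which binds syntaxin and SNAP25 and restrains vesicle fusion, and lies on chromosome 12 (44852484 to 45074709, minus strand). In the first set PM libraries held 155, 132 and 146 CPM, against 143, 163 and 145 CPM in Vehicle libraries. In the second set PM libraries held 70.1, 107 and 80.1 CPM, against 161 and 119 CPM in Vehicle libraries. First-set groups overlapped, and in the second set all PM libraries were lower. Over all libraries Stxbp6 fell by 0.35 on the log2 scale (SE 0.14, edgeR adjusted p = 0.043), a call that held under 6 of 21 alternative settings only. Without Vehicle replicate 2, 4 or 5 or PM replicate 2, 4 or 6 it did not pass, with values from -0.36 to -0.21 and adjusted p of 0.060 to 0.19. In log2 terms the first set gave -0.06 (adjusted p = 0.70) and the second -0.71 (adjusted p = 0.0013), and the test between sets passed (-0.64, SE 0.21, adjusted p = 0.035). That test did not pass without Vehicle replicate 1, 3 or 4 or PM replicate 1, 3 or 4, with differences of -0.63 to -0.41 and adjusted p of 0.067 to 0.21.

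Tdo2 encodes the tryptophan dioxygenase that opens the kynurenine pathway, and lies on chromosome 3 (81957090 to 81976202, minus strand). It was the marker with the fewest reads, 26 to 203 per library. PM libraries held 4.78 CPM at the lowest, 8.17 at the median and 14.5 at the highest, against 3.01, 3.98, 2.98, 4.25 and 2.96 CPM in Vehicle libraries. All PM libraries were above all Vehicle libraries, and the PM spread was wide, with PM replicate 3 at the top and PM replicate 6 at the bottom. Tdo2 was 2.57-fold higher (log2 fold change 1.36, SE 0.23, edgeR adjusted p = 0.00016). The second set showed the smaller rise, 0.80 (adjusted p = 0.034), beside 1.73 in the first set (adjusted p = 7.6e-06), and their difference did not pass the test (adjusted p = 0.091). The second set's rise was 0.53 without Vehicle replicate 5 (adjusted p = 0.30) and 0.58 without PM replicate 5 (adjusted p = 0.13), and the difference passed without PM replicate 5 (-1.15, adjusted p = 0.047).

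Lct encodes lactase, the enzyme of the gut lining that splits milk sugar, and lies on chromosome 1 (128284756 to 128328318, minus strand). PM libraries held 27.1 CPM at the lowest, 37.2 at the median and 57.9 at the highest, against 37.8, 45.7, 51.9, 38.5 and 22.9 CPM in Vehicle libraries. The groups overlapped almost fully, and the means were 39.4 ± 11.4 CPM in PM and 39.4 ± 10.8 CPM in Vehicle libraries (SD, n = 6 and n = 5). The log2 fold change was 0.05 (SE 0.21, 95% interval -0.37 to 0.47, edgeR adjusted p = 0.86), and changes within that interval are not excluded.

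Per transcript length, the order of the markers differed between the groups. In RPKM (CPM divided by the length in kilobases of the longest annotated transcript), C1ql2 had the highest level in all 6 PM libraries, with 48.8 ± 8.11 RPKM, followed in all 6 by Calb1, with 32.4 ± 8.42 RPKM, and Stxbp6, with 25.2 ± 7.66 RPKM (SD, n = 6). In all 5 Vehicle libraries Stxbp6 came first, with 32.2 ± 3.87 RPKM, and Rfx3 second, with 27.9 ± 1.96 RPKM (SD, n = 5). C1ql2, Calb1 and Il1rap came next in Vehicle libraries at 23.5, 22.8 and 22.5 RPKM, and these 3 did not differ beyond their spread. Prox1 averaged 4.57 RPKM in PM and 18.3 RPKM in Vehicle libraries, and so stood beside Dsp, at 4.55 RPKM, in PM libraries. Tdo2 had the lowest mean in both groups, with 2.50 RPKM in PM and 1.00 RPKM in Vehicle libraries. As a description chosen after the values were seen, the CPM ratio of C1ql2 to Prox1 was 2.33 to 3.08 in PM libraries and 0.291 to 0.394 in Vehicle libraries.

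**Figure D2:**
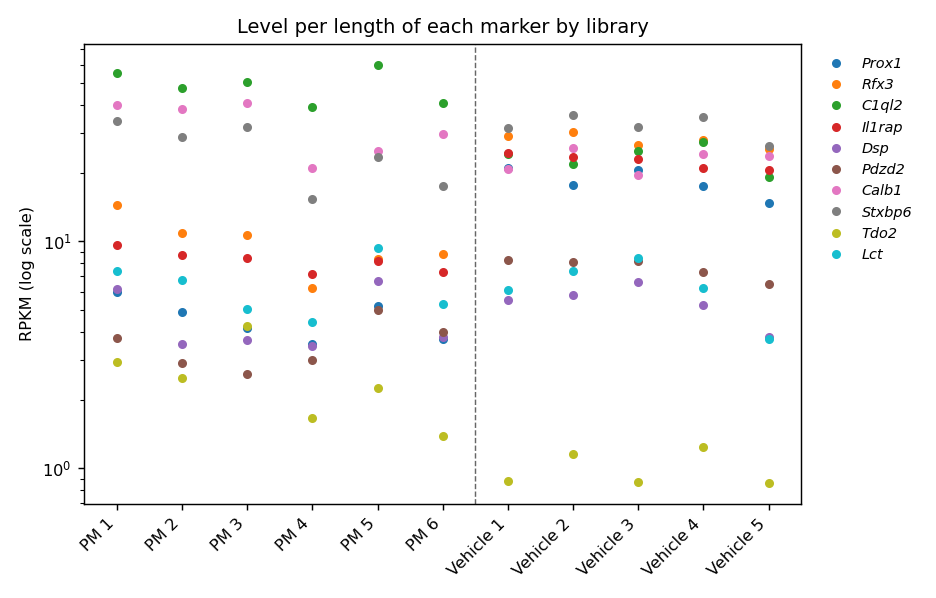
Level per transcript length of each marker (RPKM, log scale) in each of 6 PM libraries, left of the dashed line, and 5 Vehicle libraries. Each colour is a gene. C1ql2 is the top point in every PM library and Stxbp6 in every Vehicle library, while Tdo2 is the lowest point in all libraries other than PM replicate 3, where Prox1, Dsp and Pdzd2 lie below it.

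Because long transcripts tended to be lower in PM libraries and GC-rich ones higher, the fit was repeated without these trends. A smooth trend on transcript length and GC content was taken out of each library. The GC content of the markers' transcripts ran from 36.8% for Calb1 to 63.35% for C1ql2, and the parts of length and GC content were not separated. The markers' transcripts run over 2000 bases for C1ql2, 3431 for Tdo2, 4222 for Calb1, 4520 for Il1rap, 4553 for Stxbp6, 6174 for Lct, 7913 for Prox1, 9146 for Rfx3, 9592 for Dsp and 10756 for Pdzd2. With the trend removed 5 markers were higher and 2 lower, beside 36.4% and 27.2% of all tested genes and 63.6% in either direction. Prox1 (log2 fold change -0.85, adjusted p = 1.4e-05) and Il1rap (-0.80, adjusted p = 6.7e-07) remained lower, and C1ql2 (0.41, adjusted p = 0.015), Calb1 (1.24, adjusted p = 5.0e-07) and Tdo2 (1.83, adjusted p = 5.7e-06) remained higher in this edgeR fit. Within the second set C1ql2 was then at 0.12 and did not pass (adjusted p = 0.59). Rfx3 moved to -0.08 (adjusted p = 0.52) and Pdzd2 to -0.17 (adjusted p = 0.17), neither past the threshold. Dsp turned to 0.77 (adjusted p = 0.0013) and Lct to 0.53 (adjusted p = 0.026), both called higher, and Stxbp6 turned to 0.26, which did not pass (adjusted p = 0.084). The median over all tested genes moved to 0.08, against -0.04 without the removal, and that over the markers to 0.34, against -0.29.

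**Figure D3:**
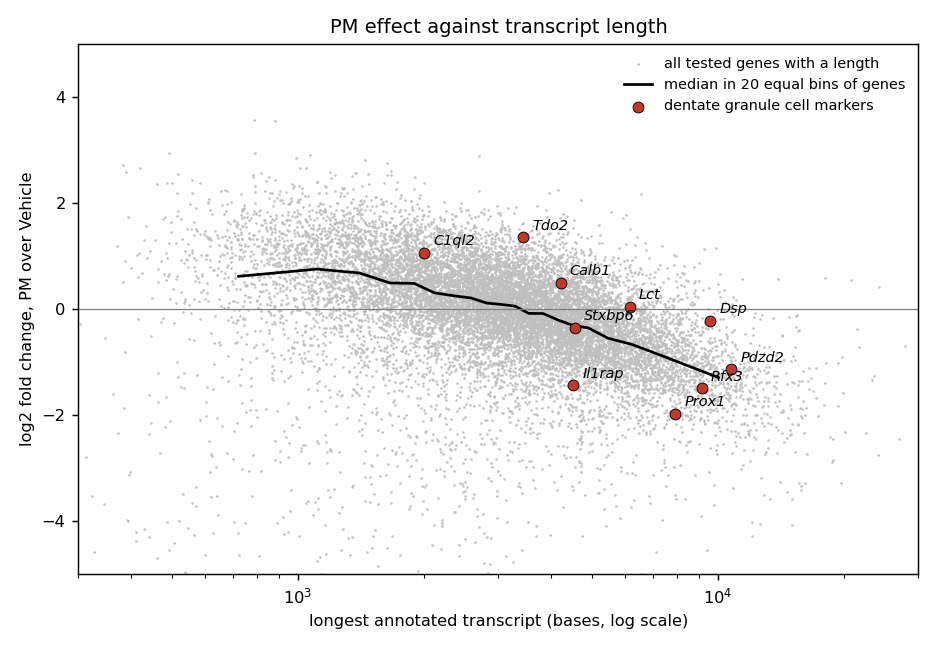
Log2 fold change of PM over Vehicle against the length of the longest annotated transcript (bases, log scale) for 14852 tested genes in grey, 123 of which lie outside the plotted range, with the median in 20 equal bins as a line and the 10 markers in red. Prox1 and Il1rap lie below the line at their lengths, and Tdo2, Calb1, Lct and Dsp lie above it.

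Within the sets, the first had 3 markers higher and 4 lower, beside 32.1% and 38.9% of all tested genes and 71.0% in either direction. The second had 2 higher and 5 lower, beside 32.3%, 32.5% and 64.8%. C1ql2 and Tdo2 were higher, and Prox1, Rfx3, Il1rap and Pdzd2 lower, in both. The PM effect differed between sets for 2 markers, Calb1 and Stxbp6, both with a more negative change in the second set, beside 29.6% of all tested genes. In Vehicle libraries the sets also differ in the Y-linked class, which cannot be told apart from the set there. The 8 choroid plexus genes varied by library within sets, summing to 1505, 198 and 3219 CPM in PM libraries of the first set and 200, 171 and 123 CPM in those of the second, against 310, 678 and 207 CPM and 269 and 2152 CPM in Vehicle libraries of the first and the second. Their part in these differences was not tested.

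**Figure D4:**
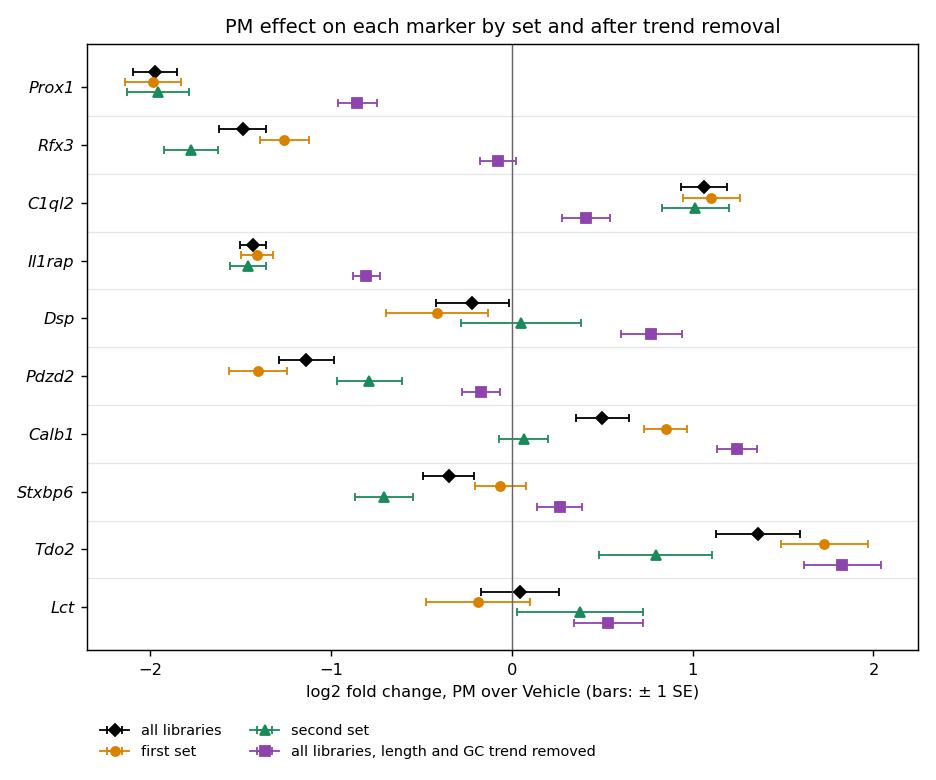
Log2 fold change of PM over Vehicle for each marker from all libraries, from each set, and from all libraries after removal of the trend on length and GC content. Points are estimates and bars ± 1 SE. The estimates of both sets lie together for Prox1, C1ql2 and Il1rap and apart for Calb1 and Stxbp6.

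A list of 15 other genes of granule neurons, among them C1ql3, Bcl11b, Dock10 and Gabrd, also moved in both directions. Of the 15, 6 were higher, 6 lower and 3 did not pass, with a median log2 fold change of -0.03. After trend removal 7 were higher and 4 lower (median 0.18). Of the 4 with the highest RPKM, Dgat2, an enzyme of triglyceride synthesis, was higher with 72.2 to 103 CPM in PM and 35.0 to 43.3 CPM in Vehicle libraries (log2 fold change 1.00, edgeR adjusted p = 1.7e-06), and C1ql3 rose by 0.41 (adjusted p = 0.0036). Bcl11b, a zinc finger factor needed for granule neuron development, fell to 128 to 197 CPM in PM libraries, against 337 to 444 CPM in Vehicle libraries (-1.13, adjusted p = 1.5e-06). With the trend removed Dgat2 was still higher (0.51, adjusted p = 0.00025), while C1ql3 (0.18, adjusted p = 0.21) and Bcl11b (-0.19, adjusted p = 0.15) were not called. Fam163b had a log2 fold change of -0.23 and did not pass (adjusted p = 0.27), but was called lower with the trend removed (-0.65, adjusted p = 0.0032). Among 10 genes of progenitors and immature granule neurons 3 were higher and 3 lower (median -0.05). Stmn1, a tubulin-binding protein, rose by 0.84 (adjusted p = 8.9e-05), and Ncam1 and Sox11 fell by 1.00 and 1.10 (adjusted p = 4.6e-07 and 4.7e-06). With the trend removed Stmn1 (0.49, adjusted p = 0.0021) and Ncam1 (-0.26, adjusted p = 0.0055) kept their calls, and Sox11 turned to 0.04 and was not called (adjusted p = 0.80). Calb2, which marks immature granule neurons and mossy cells, had 8.07 to 65.5 CPM in PM and 20.5 to 29.6 CPM in Vehicle libraries and did not pass (adjusted p = 0.21), though without PM replicate 5 it did (log2 fold change 0.76, adjusted p = 0.0025).

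Summed over the list, the 10 markers reached 452 to 812 CPM in PM libraries and 834 to 1033 CPM in Vehicle libraries, with no overlap, and the sum is led by the genes with the most reads. The 15 other granule neuron genes summed to 699 to 1064 CPM in PM and 1068 to 1285 CPM in Vehicle libraries. The 10 genes of CA1 pyramidal neurons overlapped, at 515 to 869 CPM in PM and 675 to 829 CPM in Vehicle libraries, with 4 genes higher, 3 lower and a median log2 fold change of -0.06 (2 higher and 4 lower with the trend removed). The 12 genes of CA2 and CA3 pyramidal neurons summed to 543 to 718 CPM in PM and 497 to 600 CPM in Vehicle libraries, with 4 higher, 4 lower and a median of -0.11 (3 higher and 2 lower with the trend removed). The 10 genes of progenitors and immature granule neurons summed to 567 to 655 CPM in PM and 828 to 898 CPM in Vehicle libraries. Sums of interneuron, neocortex and astrocyte genes, given below, were also lower in PM libraries with no overlap. All these sums are descriptions made without removal of the trend, and whether the markers differ from the other lists was not tested.

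**Figure D5:**
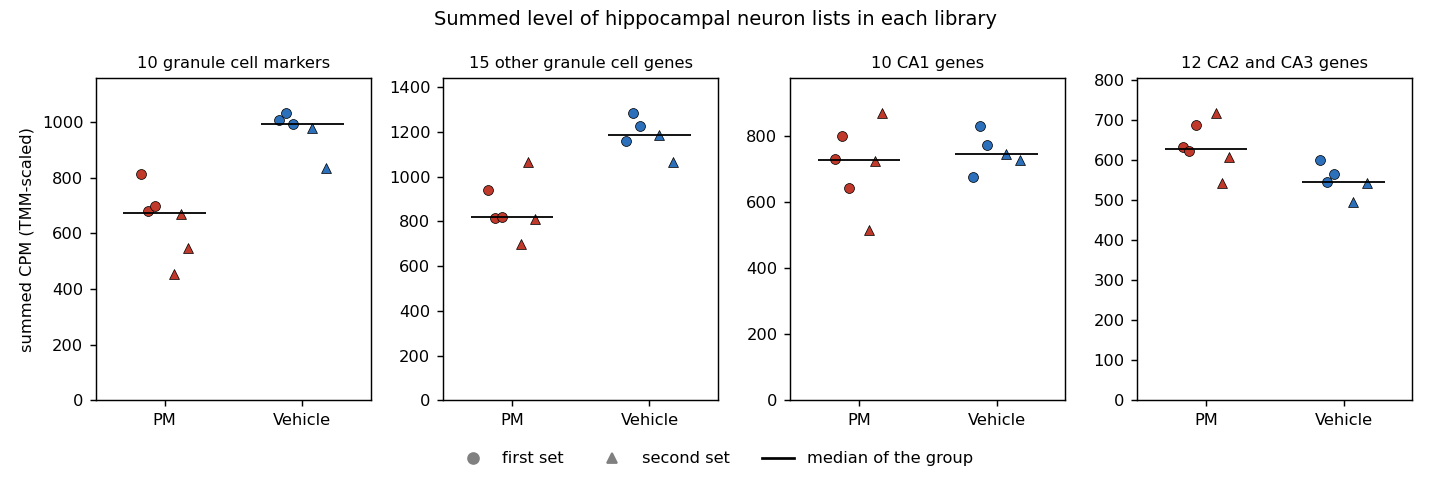
Summed CPM of 4 lists of hippocampal neuron genes in each library, PM left of Vehicle, with the group's median as a line, circles for the first set and triangles for the second. The PM libraries lie below the Vehicle libraries for the 10 markers and, by a narrow gap, for the 15 other granule neuron genes. They overlap with them for the CA1 list and the CA2 and CA3 list. Lists not plotted, such as those of interneurons, neocortex and astrocytes, also had lower sums in all PM libraries.

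Markers of other cells also moved with the groups. Microglia genes had 8 of 10 higher and none lower (median log2 fold change 1.08), with sums of 330 to 500 CPM in PM and 245 to 269 CPM in Vehicle libraries. Oligodendrocyte genes had 6 of 10 higher and none lower (median 0.57), with sums of 4269 to 9685 CPM in PM and 3963 to 5047 CPM in Vehicle libraries. Endothelial genes had 5 of 8 higher and none lower (median 0.40), with sums of 231 to 425 CPM in PM and 189 to 219 CPM in Vehicle libraries. Astrocyte genes, led by the glutamate transporter Slc1a2, had 5 of 10 higher and 3 lower (median 0.44) and summed to 3785 to 6670 CPM in PM and 7329 to 7747 CPM in Vehicle libraries. Their sum was lower in PM libraries while their median log2 fold change was above 0, and Slc1a2, the largest part of the sum, fell by 1.16 (edgeR adjusted p = 2.3e-06) but turned to 0.31 with the trend removed (adjusted p = 0.065). Interneuron genes had 2 of 10 higher and 4 lower (median -0.18), with sums of 609 to 772 CPM in PM and 961 to 1022.5 CPM in Vehicle libraries. Neocortex genes had 2 of 8 higher and 3 lower (median -0.70), with sums of 139 to 192 CPM in PM and 296 to 351 CPM in Vehicle libraries. Thalamus genes had 3 of 6 higher and 3 lower (median 0.04; 33.8 to 64.5 CPM in PM and 53.3 to 59.0 CPM in Vehicle libraries), and mossy cell genes 1 of 5 lower (median 0.13; 19.2 to 88.2 CPM in PM and 31.6 to 39.4 CPM in Vehicle libraries). Choroid plexus genes had 1 of 7 tested lower and 0 higher (median -0.64), with sums of 123 to 3219 CPM in PM and 207 to 2152 CPM in Vehicle libraries. With the trend removed, astrocyte genes had 6 higher and 0 lower, oligodendrocyte genes 6 higher and 2 lower, endothelial genes 7 higher and 0 lower, and microglia genes 8 higher and 0 lower as before. Interneuron genes then had 2 higher and 7 lower (median -0.42), neocortex genes 1 higher and 3 lower (median -0.01), thalamus genes 3 higher and 2 lower, mossy cell genes 2 lower, and choroid plexus genes 0 called. None of these lists had a gene at 0 in any library except the choroid plexus list, where Aqp1 was at 0 in some. Their part in the marker changes was not tested.

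Genes that work with the markers were taken from lists chosen for function, some of which hold the marker itself, and their counts stand beside 32.7% of all tested genes higher and 36.4% lower, or 36.4% higher and 27.2% lower with the trend removed. Of 11 kainate receptor and neurexin genes, the partners of C1QL2, 8 were lower and 0 higher, with a median log2 fold change of -1.14, beside -0.04 over all tested genes. The list had 2 higher and 4 lower once the trend was removed, and its median was then -0.08. Nrxn3, the neurexin gene, held 168 to 212 CPM in PM and 520 to 586 CPM in Vehicle libraries (log2 fold change -1.51, edgeR adjusted p = 4.9e-09), and Grik2, a kainate receptor subunit, 49.8 to 67.8 CPM in PM and 166 to 177 CPM in Vehicle libraries (-1.54, adjusted p = 9.1e-09). After removal of the trend Nrxn3 was still lower (-0.45, adjusted p = 0.00045) and Grik2 was not called (-0.03, adjusted p = 0.78). Grik4, the subunit enriched at mossy fibres, had a log2 fold change of -0.93 in the first set (adjusted p = 0.0010) and 0.12 in the second (adjusted p = 0.66), and these differed (adjusted p = 0.020). Over all libraries it had -0.48 and did not pass (adjusted p = 0.060), but it was called without Vehicle replicate 4 or 5 or PM replicate 4 (-0.64 to -0.58) and with DESeq2 (-0.44, adjusted p = 0.043), and was 0.02 with the trend removed (adjusted p = 0.93). Within the C1q-like family 3 of 6 tested genes were higher and none lower (median 0.35), C1ql2 itself, C1ql3 and C1ql1 (0.73, adjusted p = 2.7e-05). With the trend removed C1ql2 alone was called, C1ql1 being at 0.05 (adjusted p = 0.75) and C1ql3 at 0.18 (adjusted p = 0.21).

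Around Il1rap, 9 genes of interleukin-1 family receptors and their adaptors were tested, a list without Il1rap itself. Beside receptor genes it holds Irak1, Irak4, Traf6, Myd88 and Ptprd. Of the 9, 3 were higher and 3 lower (median -0.27), and with the trend removed 5 were higher and 2 lower (median 0.43). Il1rapl1, a synaptic relative of Il1rap, held 1.29 to 3.10 CPM in PM and 27.7 to 34.2 CPM in Vehicle libraries (log2 fold change -3.90, edgeR adjusted p = 2.1e-09) and was still lower with the trend removed (-2.35, adjusted p = 8.0e-08). Ptprd, which encodes PTPδ, fell by 0.88 (adjusted p = 2.4e-06) and turned to 0.50 with the trend removed (adjusted p = 0.0014). Il1r1, the receptor chain that binds the cytokine, had -0.27 and did not pass (adjusted p = 0.16), though without PM replicate 5 it did (-0.39, adjusted p = 0.024), and with the trend removed it turned to 0.58 (adjusted p = 0.0087).

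Of 13 genes made up of Prox1, its partners and other transcription factors of granule neurons, 10 were lower, Prox1 and Bcl11b among them, and 0 higher (median -0.53). After trend removal 6 were lower and 2 higher (median -0.27). Neurod1, which drives granule neuron differentiation, fell by 0.38 (edgeR adjusted p = 0.00087) and was not called with the trend removed (-0.13, adjusted p = 0.20). Of 8 genes of RFX factors and their partners, Rfx3 among them, 1 was higher and 4 lower (median -0.44). With the trend removed 1 was higher and 3 lower (median -0.25). The list holds Rfxap and Rfxank, which encode partners of RFX proteins and not RFX factors. The higher gene was Rfxap in both fits, so no gene of an RFX factor was called higher. Rfx7 held 25.1 to 40.4 CPM in PM and 93.7 to 103 CPM in Vehicle libraries (-1.59, adjusted p = 2.9e-08). Rfxap held 29.9 to 34.9 CPM in PM and 12.8 to 17.1 CPM in Vehicle libraries (1.13, adjusted p = 1.9e-07). Of 12 genes of PDZ scaffolds and a partner, 2 were higher and 10 lower, Pdzd2 included (median -1.14). The higher genes were Pdzd4 (0.58, adjusted p = 5.6e-05) and Gripap1 (0.72, adjusted p = 1.1e-05), which encodes a partner of the PDZ protein GRIP1. Among those lower were Magi2, at 84.9 to 100.4 CPM in PM and 244 to 284 CPM in Vehicle libraries (adjusted p = 3.5e-09), and Tjp1 (-1.24, adjusted p = 1.5e-08). With the trend removed 1 was higher and 7 lower (median -0.27). The higher gene was then Gripap1 (0.63, adjusted p = 2.5e-06), and Pdzd4 was not called (0.31, adjusted p = 0.069).

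Among 12 SNARE and syntaxin binding genes, the setting in which amisyn acts, Stxbp6 included, 3 were higher and 7 lower (median -0.36), and with the trend removed 2 were higher and 4 lower (median 0.03). Stx1a, a syntaxin, held 83.0 to 119 CPM in PM and 42.6 to 45.1 CPM in Vehicle libraries (log2 fold change 1.19, edgeR adjusted p = 6.9e-08). Stxbp5, which encodes tomosyn, another inhibitor of SNARE assembly, fell by 1.26 (adjusted p = 3.4e-08) but was at 0.06 with the trend removed (adjusted p = 0.46), and Snap25 had -0.01 and did not pass (adjusted p = 0.90). Of 10 EF-hand calcium buffer genes, Calb1 included, 5 were higher and 0 lower (median 0.53), against 6 higher and 2 lower with the trend removed (median 0.58), with Hpca, the hippocalcin gene, rising by 1.37 (adjusted p = 7.8e-08) and Calm2, a calmodulin gene, by 0.78 (adjusted p = 5.1e-05).

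Of 8 tested desmosome and adherens plaque genes, Dsp included, 1 was lower and 7, with Dsp, did not pass (median -0.05), and with the trend removed 2 were higher and 1 lower (median 0.09). Jup, the plakoglobin gene, held 26.8 to 34.9 CPM in PM and 27.0 to 35.8 CPM in Vehicle libraries (log2 fold change -0.08, edgeR adjusted p = 0.52) and was called lower with the trend removed (-0.50, adjusted p = 0.00038), and Pkp1, Pkp3 and Dsg1a had at most 3 counts in every library. Of 7 tested kynurenine pathway genes, Tdo2 among them, 2 were higher and 2 lower (median -0.04), or 2 higher and 3 lower with the trend removed (median -0.37), and Kmo, a later oxygenase of the pathway, had at most 3 counts in every library. Of 6 tested disaccharidase and family 1 glycosidase genes, a group that includes Lct, 1 was higher, 1 lower and 4 did not pass (median -0.09), and with the trend removed 2 were higher and 2 lower (median -0.20).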

How the data were processed

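Hippocampal RNA was sequenced in 6 PM and 5 Vehicle libraries. The deposited files hold 1 raw count per gene symbol and library, made by the authors. HTSeq 0.9.1, STAR, Picard 2.9.2, SAMtools 1.9, Trimmomatic 0.36 and FastQC 0.11.9 are listed, with the builds mm10 and hg19, per the submitters' processing notes. Strand setting and annotation are not given in the sources used. The RNA was depleted of ribosomal RNA, per the labels' protocols, while the molecule field names polyA RNA. HTSeq's summary rows stayed out of library sizes and tests: no-feature counts were 18.8% to 34.0% of counts in PM and 60.9% to 62.0% in Vehicle libraries, ambiguous ones 1.21% to 1.42% and 0.538% to 0.582%, and non-unique ones 7.22% to 9.90% and 4.21% to 4.75%.

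Counts were tested with edgeR 4.0.16 in R 4.3.3: filterByExpr with a minimum count of 10, TMM scaling, the robust quasi-likelihood test with the deposit set as covariate, and Benjamini-Hochberg adjustment over all 14982 tested genes at a threshold of 0.05. Set effects and their difference were contrasts of a second fit with a mean for each group in each set. Each SE was derived as the absolute log2 fold change over the root of its F statistic. CPM uses TMM-scaled library sizes, and RPKM divides it by the longest GENCODE M21 transcript (GRCm38, the assembly of mm10), to which 98.4% of symbols were matched. The trend removal fitted a natural spline with 5 degrees of freedom on log2 length and on GC content in each library. No pair of libraries agreed within sampling noise (lowest chi-square per degree of freedom 2.01, Vehicle replicates 1 and 3). The steps were tested on simulated data. The members and gene lists were chosen with earlier results of these data known. All 10 members were named, with up to 4 genes of highest RPKM of a list and 16 partner genes chosen for their roles. Alternatives were other size factors, DESeq2 1.42.0, no filter, no set covariate, the replicate block, each set alone, the trend removed, library sizes without the most abundant non-coding rows, each replicate left out, and, added after seeing the data, a covariate for Y-linked counts.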

Additional observations from a re-analysis of the deposited data

Results flagged for a closer look

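For Calb1, the calbindin gene, the PM effect differed between the deposit sets by -0.78 on the log2 scale, second minus first set (SE 0.18, edgeR interaction test, adjusted p = 0.0046). Its means were 167 CPM in PM and 92.8 CPM in Vehicle libraries of the first set, and 106 CPM in PM and 102 CPM in Vehicle libraries of the second. For Stxbp6, the amisyn gene, the difference was -0.64 (SE 0.21, adjusted p = 0.035), with means of 144 CPM in PM and 151 CPM in Vehicle libraries of the first set and 85.7 CPM in PM and 140 CPM in Vehicle libraries of the second. The Stxbp6 difference did not pass without Vehicle replicate 1, 3 or 4 or PM replicate 1, 3 or 4 (-0.63 to -0.41, adjusted p of 0.067 to 0.21), while that of Calb1 passed with any one library left out. The sets hold 3 PM libraries each, with 3 Vehicle libraries in the first and 2 in the second.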

How the results depend on the processing

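Prox1, C1ql2, Tdo2 and Il1rap kept their direction and their call under all 21 alternatives to the fit of all libraries, and Rfx3 and Pdzd2 under 20 of 21, the exception being the removal of the length and GC trend. With that trend removed, members higher were 5 over all libraries and 5 in the first set, members lower 2, 2 and 3 (all libraries, first and second set), and 1 differed between sets. It also turned Dsp (0.77 over all libraries, 0.71 in the first set), Lct (0.42 in the first set), Stxbp6 (0.26, 0.46 and 0.023 over all libraries, in the first and in the second set), Rfx3 (0.094 in the first set), Grik4 (0.019), Il1r1 (0.58), Ptprd (0.50), Snap25 (0.12) and Stxbp5 (0.059), and Jup was then called (-0.50). The cause was not tested. Stxbp6 passed under 6 alternatives only, with -0.32 under DESeq2's size factors (adjusted p = 0.072) and -0.33 under DESeq2 (adjusted p = 0.065). In the first set it was 0.084 without the filter, 0.050 without the abundant non-coding genes and 0.033 with that set fitted alone. Leaving out a replicate gave 4 to 6 members lower over all libraries, 1 to 2 higher in the second set (1 without Vehicle replicate 5 or PM replicate 5) and 1 to 3 that differed between sets (1 without Vehicle replicate 1, 3 or 4). Values near 0 then ranged over both signs: Lct -0.13 to 0.15 over all libraries and -0.020 to 0.77 in the second set, Dsp -0.31 to 0.29 and Calb1 -0.075 to 0.18 in the second set, Stxbp6 -0.12 to 0.031 in the first set, and Snap25 -0.049 to 0.050. Without the filter 4 members differed between sets, Snap25 was 0.082 and Jup 0.018. With the second set fitted alone Dsp was 0.062, Grik4 0.13, Jup 0.077 and Calb1 0.074 (adjusted p = 0.64). With the first alone Lct was -0.090 and Snap25 0.12. Snap25 was 0.0165 with DESeq2 and with its size factors, and 0.057 without the abundant non-coding genes. Lct was -0.000117 without the set covariate and -0.011 with the Y-linked covariate.

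Replicate numbers did not pair the samples (correlations of deviations -0.18 to -0.0050). With the replicate block in place of the set, members were 2 higher and 4 lower over all libraries and 1 higher in the second set, where C1ql2 was 1.10 (adjusted p = 0.090) and Stxbp6 -0.66 (adjusted p = 0.18), neither called. Calb1 then had an adjusted p of 0.0528 (0.49) and was -0.058 in the second set, and Stxbp6 was 0.033 in the first. Tdo2 had the fewest reads of the members, 26 to 203 a library.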
